A study of Mus musculus with 6 samples.

Results

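The transcription factor NRF2, its inhibitor KEAP1 and 8 genes of the antioxidant and detoxification programme were followed in mouse embryonic stem cells exposed to the small molecule SC1: Nfe2l2 (which encodes NRF2), Keap1, Gclc, Gclm, Gsta4, Gstm1, Srxn1, Txnrd1, Hmox1 and Ugdh. The genes were listed by name, and their probes were those whose transcript accession belongs to a listed gene in RefSeq. All 10 had a probe, 12 probes in all on 21 spots per array, and all 10 were among the 25448 genes whose signal was high enough to test. The cells were of the J1 line, a single embryonic stem cell line from the inner cell mass of the 129S4/SvJae strain, grown on gelatin. All cultures received 1000 U/ml LIF (leukemia inhibitory factor, which sustains self-renewal), serum replacement and 100 µM β-mercaptoethanol, a thiol that itself acts as a reducing agent. The treated group received 1 µM SC1 for 6 h (3 samples) and the control group DMSO, its solvent, for 6 h (3 samples). SC1, or pluripotin, is known as an inhibitor of ERK1 and of RasGAP. The labels name the groups in the sample titles, while their treatment text is the same for all samples, and they do not say whether replicates were separate cultures, so each p-value covers no more than the variation among these samples, possibly only technical.

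NRF2 is a transcription factor that activates genes of antioxidant and detoxifying enzymes. In unstressed cells KEAP1 holds it and delivers it to a ubiquitin ligase built on CUL3, so that it is degraded. Oxidants and electrophiles modify cysteines of KEAP1, NRF2 then accumulates, pairs with a small MAF protein and binds antioxidant response elements, which BACH1 occupies as a repressor. Much of this control is on the protein, and the arrays measured RNA only. The target genes cover glutathione synthesis, transfer of glutathione to reactive compounds, the thioredoxin system, heme breakdown and the supply of NADPH.

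The core of the antioxidant response element, TGACNNNGC, was searched on both strands of the RefSeq promoter windows (GRCm38.p6), which run from 250 bases before to 50 bases after each transcript's start. Windows were found for 7 of the 10 genes. Of these 7, the core was present in Nfe2l2, Gclm, Srxn1, Txnrd1 and Ugdh and in no window of Keap1 or Gstm1. Over all genes with a window, 3781 of 27025 (14.0%) held at least 1 match, and a gene with several windows had more chances. The matches are shown because Gclm, Txnrd1 and Ugdh, which changed with SC1, and Nfe2l2 and Srxn1, which did not pass the test, all have one. Capitals mark the core, which reads GCNNNGTCA where it lies on the opposite strand, and each stretch runs 5′ to 3′ on the strand of its gene. The stretches are chr2:75704855-75704913 (minus strand) for Nfe2l2, chr3:122245383-122245471 (plus) for Gclm, chr2:152105542-152105570 (plus) for Srxn1, chr10:82859074-82859162 (plus) for Txnrd1 and chr5:65435926-65436014 (minus) for Ugdh.
Nfe2l2: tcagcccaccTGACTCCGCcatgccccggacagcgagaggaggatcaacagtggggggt
Gclm: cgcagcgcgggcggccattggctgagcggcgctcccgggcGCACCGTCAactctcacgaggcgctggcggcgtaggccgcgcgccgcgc
Srxn1: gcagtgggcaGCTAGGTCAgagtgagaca
Txnrd1: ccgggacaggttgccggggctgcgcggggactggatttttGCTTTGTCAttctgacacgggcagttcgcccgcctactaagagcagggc
Ugdh: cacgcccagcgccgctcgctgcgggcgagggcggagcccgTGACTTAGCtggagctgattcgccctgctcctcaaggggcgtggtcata

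The match began 240 bases upstream of the start in Nfe2l2, 134 in Gclm, 92 in Txnrd1 (in 1 of its 3 windows) and 132 in Ugdh, and at base 29 of the transcript in Srxn1. Ugdh had a second match 94 bases upstream, GCGTGGTCA, which stands in lower case near the end of the stretch shown. A match describes the letters of the window and shows no binding. A window without a match says nothing about the sequence outside it, which was not searched. Of the other genes of the pathway lists described below, 20 of 118 with a window (16.9%) held the core; 6 of these 20 were higher with SC1, 7 were lower and 7 did not pass the test. Of the list genes without the core 24 were higher, 20 lower and 48 did not pass, and 38.3% of all genes tested were called. The difference was not tested.

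All arrays were scanned together on 1 slide. DMSO arrays had 65.1% to 65.7% of their probes above background and SC1 arrays 63.3% to 65.2%. The 75th percentile of the processed signal, to which each array was scaled, lay between 532 and 539 with DMSO and between 443 and 493 with SC1. Precision is limited by having 3 arrays a group. The defining genes of embryonic stem cells were present: all 10 listed markers were above background on every array, and with SC1 2 were higher, 4 lower and 4 did not pass the test described below. Their summed level, which the brightest probes carry, was 687 to 711 with DMSO and 688 to 729 with SC1. Of 11 fibroblast markers 9 were above background on every array (5 higher, 1 lower, 3 not passing), and Lum and Postn on none. Their summed level was 158 to 162 with DMSO and 160 to 167 with SC1. All 9 primitive endoderm markers were above background on every array (4 higher, 1 lower, 4 not passing), with a summed level of 19.4 to 20.6 with DMSO and 22.3 to 23.1 with SC1. Of 9 trophoblast markers 6 were above background on every array, and Elf5 and Hand1 on none. Of those tested 4 were higher, 2 lower and 1 did not pass, and the summed level was 15.7 to 16.2 with DMSO and 34.8 to 36.8 with SC1. The part of these shifts in the results was not tested. In bulk RNA, fewer cells of a type and less RNA per cell cannot be told apart.

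After 6 h of SC1 the programme did not move as one. Keap1, Gclm and Ugdh rose, Txnrd1 and Gclc fell, and Nfe2l2, Hmox1, Srxn1, Gsta4 and Gstm1 did not pass the test. That is 5 of 10 genes at an adjusted p under 0.05 (limma, Benjamini-Hochberg over all genes), beside 38.3% of all genes tested, of which 18.1% were higher and 20.2% lower. On 6 of the 10 genes the DMSO and SC1 arrays did not overlap, beside 52.1% of all genes. The 10 genes and the pathway lists were chosen with earlier results of these data known. No share called here or below can therefore show that the pathway changed more than other genes. The median change of the 10 genes was 0.075 on the log2 scale, and that of all genes was -0.0052. In what follows a signal is a multiple of the array's 75th percentile, and a change is SC1 minus DMSO on the log2 scale. Signals of different probes cannot be set against each other, because probes differ in how well they bind.

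**Figure D1:**
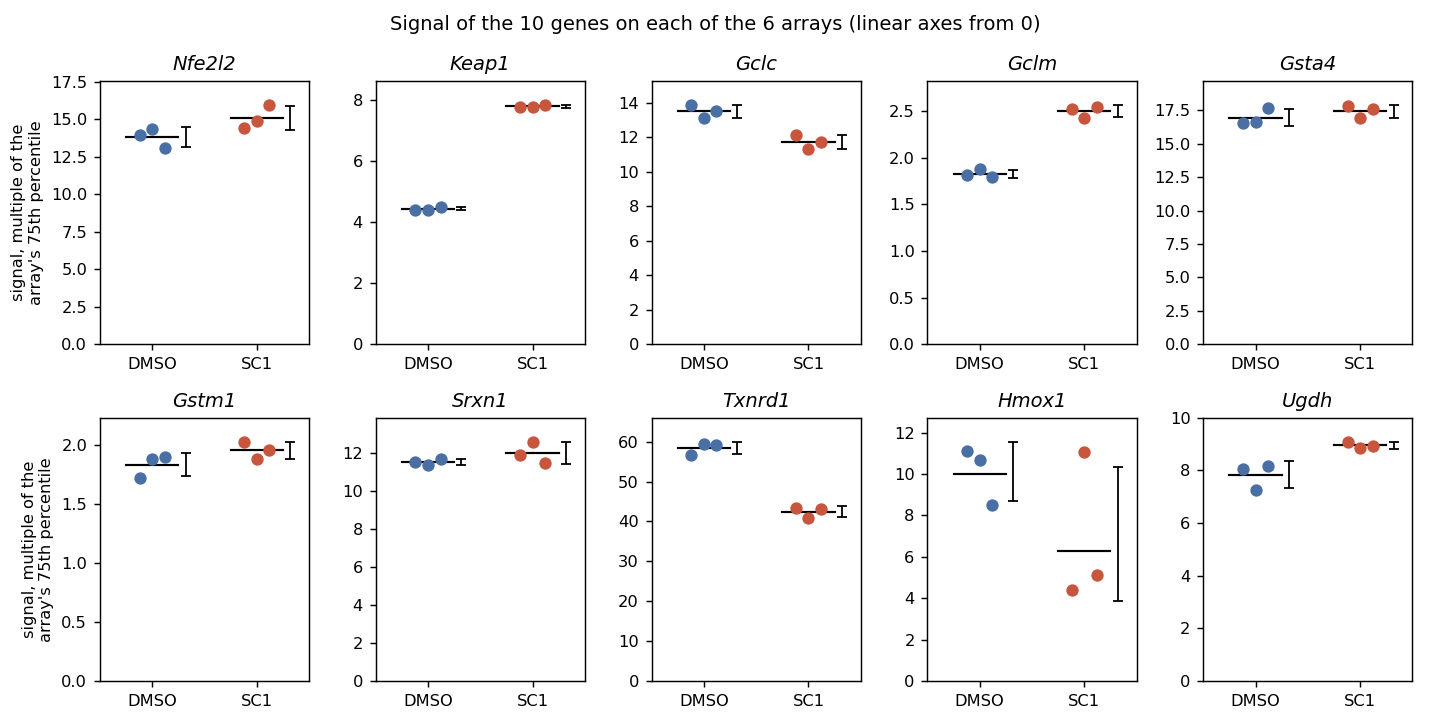
Signal of each of the 10 genes on the 3 DMSO arrays (blue) and the 3 SC1 arrays (red), as a multiple of the array's 75th percentile, on linear axes from 0; the line is the geometric mean and the bar 1 SD of the log2 values. Keap1 rose from 4.42 to 4.50 on the DMSO arrays to 7.77 to 7.85 on the SC1 arrays, Txnrd1 lay lower on all SC1 arrays, and Hmox1 on 1 SC1 array lay with the DMSO arrays.

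Among the regulators, the inhibitor changed and the factor it restrains did not pass the test. The Keap1 signal was 4.42, 4.42 and 4.50 on DMSO arrays 1, 2 and 3 and 7.77, 7.79 and 7.85 on SC1 arrays 1, 2 and 3. The arrays of a group nearly coincided and the groups lay far apart. Keap1 rose by 0.81 (SE 0.036, 95% interval 0.72 to 0.90), a 1.75-fold increase, with an adjusted p of 4.76e-05 from limma.

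The Nfe2l2 signal was 13.9, 14.4 and 13.1 with DMSO and 14.4, 14.9 and 16.0 with SC1. All SC1 arrays lay above all DMSO arrays, but the highest DMSO and the lowest SC1 array nearly met. The change was 0.13 (SE 0.060, 95% interval -0.019 to 0.27), with a limma adjusted p of 0.148. Over the alternatives this p ran from 0.0378 to 0.806, and quantile normalization gave 0.20 with the lowest of these. Nfe2l2 thus passed as higher there, and also with the deposited matrix (0.19, adjusted p 0.0406) and the robust prior (0.13, adjusted p 0.0386).

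The ratio of Keap1 to Nfe2l2 within an array does not depend on how arrays are scaled. Its log2 value rose by 0.68 with SC1, with an SD of 0.085 over the DMSO arrays and 0.067 over the SC1 arrays. It was higher on each SC1 array than on any DMSO array. The exact permutation test gave a two-sided p of 0.1, the smallest that 3 arrays against 3 can give. Of 3 such ratios examined, all had this p, and the Benjamini-Hochberg value was 0.1 as well. They were chosen after the values were seen and are a description only.

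Of 17 other regulators and partners tested, 5 were higher, 3 lower and 9 did not pass (47.1% called beside 38.3% of all genes). Bach1, the repressor that competes with NRF2 for its binding sites, had signals of 1.83, 2.05 and 1.96 with DMSO and 3.15, 3.28 and 3.22 with SC1. It rose by 0.73 (SE 0.055; 1.65-fold; adjusted p 0.000274). Btrc, which encodes a subunit of a second ubiquitin ligase for NRF2, rose by 0.52 (adjusted p 0.000351), although its probes ranged from 0.05 to 0.52. Gsk3b, whose kinase marks NRF2 for that ligase, rose by 0.21 (adjusted p 0.035), a call kept in 7 of 17 alternatives and lost with spike-in scaling (0.547), without a filter (0.0703) and with either position block (0.248 and 0.190). It was also lost without any 1 array other than SC1 replicate 3 (adjusted p 0.0529 to 0.0986).

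The small MAF partners differed, and Maff did not pass (change 0.074, adjusted p 0.251). Mafg rose by 0.18 (adjusted p 0.0191, kept in 9 of 17 alternatives) and Mafk fell by 0.37 (adjusted p 0.00353). Bach2, a relative of Bach1, fell by 0.63 (adjusted p 0.0146) and Nfe2l3, a relative of NRF2, by 0.66 (adjusted p 0.00321), both on dim probes. With normexp background correction Nfe2l3 changed by -0.041 with an adjusted p of 0.502, and Bach2 by -0.18. Cul3, the scaffold of the KEAP1 ligase, had a change of 0.088 (adjusted p 0.218). Mafg lost its call without DMSO replicate 2 or 3 or SC1 replicate 1 or 3 (adjusted p 0.0581 to 0.0654), and Bach2 without DMSO replicate 2 (0.0516). Bach2 kept its call in 13 of 17 alternatives. It also lost it with the replicate block (0.0577), the second position block (0.0836) and the first (change -0.46). Mafk kept its call in 15 of 17 and lost it with spike-in scaling (0.0516) and the second position block (0.0836).

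**Figure D2:**
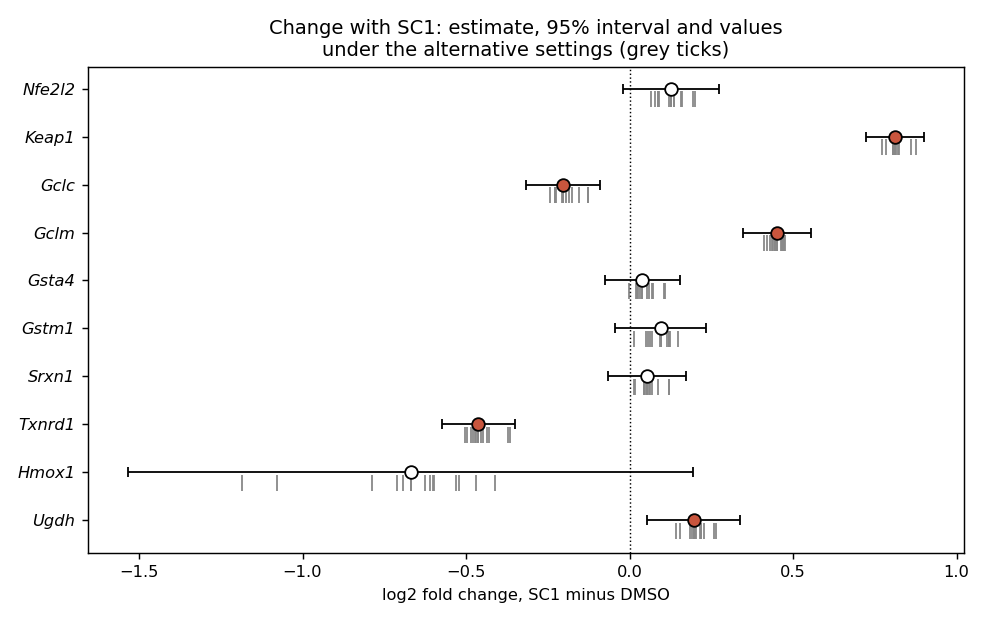
Log2 fold change of each of the 10 genes, SC1 minus DMSO, with its 95% interval; filled points passed an adjusted p of 0.05 and open points did not, and grey ticks are the values under the alternative settings. Keap1 at 0.81 and Txnrd1 at -0.46 kept their calls under every setting drawn, and of the 10 genes only Gsta4 changes sign under any. The values of Hmox1 run from -1.19, with the first position block, which compares SC1 array 1 alone with DMSO, to -0.41.

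Both subunits of glutamate-cysteine ligase, the enzyme of the first and rate-limiting step of glutathione synthesis, changed, and in opposite directions. Gclm encodes the modifier subunit, which raises the enzyme's efficiency, and its signal was 1.81, 1.88 and 1.80 with DMSO and 2.53, 2.43 and 2.55 with SC1. The groups were well apart. Gclm rose by 0.45 (SE 0.043, 95% interval 0.35 to 0.56; 1.37-fold), with an adjusted p of 0.000618. With spike-in scaling it rose by 0.41 and the adjusted p was 0.0549, the highest of a range over the alternatives that began at 3.65e-07.

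Gclc encodes the catalytic subunit, and its signal was 13.9, 13.1 and 13.5 with DMSO and 12.1, 11.3 and 11.8 with SC1. Every SC1 array was lower than every DMSO array, by a small margin. Gclc fell by 0.20 (SE 0.047, 95% interval -0.32 to -0.089; 1.15-fold), with an adjusted p of 0.0173. The call was lost in 8 of 17 alternatives: with quantile normalization (adjusted p 0.0596), spike-in scaling (0.332), the deposited matrix (0.0573), the first (0.168) or second (0.140) array position number as a block, and without DMSO replicate 1 (0.0565), DMSO replicate 3 (0.0559) or SC1 replicate 3 (0.0517), while the lowest p over the alternatives was 0.000774.

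The log2 ratio of Gclm to Gclc within an array rose by 0.65, with an SD of 0.068 over the DMSO and 0.030 over the SC1 arrays. The groups did not overlap, and the exact permutation p was 0.1, again the smallest possible.

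Of 19 other genes of glutathione synthesis, recycling and breakdown, 4 were higher, 5 lower and 10 did not pass. The share called was 47.4%, beside 38.3% of all genes. Gss, glutathione synthetase, which completes the tripeptide, rose by 0.42 (SE 0.054; 1.34-fold; adjusted p 0.00191). Cth, which makes cysteine from cystathionine, rose by 0.54 (adjusted p 0.000256), and Cbs, the enzyme before it, fell by 0.38 (adjusted p 0.00824). Oplah, which returns 5-oxoproline to glutamate, rose by 0.55 (adjusted p 0.000389), and Ggct, which releases 5-oxoproline, fell by 0.33 (adjusted p 0.0095). For Ggct the call was kept in 14 of 17 alternatives.

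Among the peptidases that act on the products of glutathione breakdown, Cndp2 rose by 0.43 (adjusted p 0.000795). Anpep, an aminopeptidase of the cell surface, had signals of 4.90, 4.38 and 4.39 with DMSO and 2.08, 1.81 and 1.88 with SC1. It fell by 1.24 (SE 0.075; 2.37-fold; adjusted p 0.000125), the largest decrease in this list. Gsr, glutathione reductase, had a change of -0.042 (adjusted p 0.56), which turned to 0.049 with quantile normalization or the deposited matrix. Slc7a11, the cystine transporter that NRF2 activates, was not well above background on any array and was not tested.

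The glutathione transferases, which attach glutathione to reactive compounds, were represented by Gsta4 and Gstm1, and neither passed. Gsta4, whose enzyme prefers the lipid peroxidation product 4-hydroxynonenal, was measured on 10 spots of each array, with a coefficient of variation between spots of 2.70% to 4.06%. Its signal was 16.6, 16.7 and 17.7 with DMSO and 17.8, 16.9 and 17.6 with SC1. The groups overlapped, and the change was 0.039 (SE 0.047, 95% interval -0.076 to 0.15; adjusted p 0.56). With spike-in scaling it was -0.0012.

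Gstm1, a transferase of the mu class, had 2 probes. The brighter gave 1.72, 1.88 and 1.90 with DMSO and 2.03, 1.88 and 1.96 with SC1. These groups overlapped, with a change of 0.095 (SE 0.057, 95% interval -0.044 to 0.24; adjusted p 0.244). The dimmer probe gave 0.873, 0.862 and 0.967 with DMSO and 0.914, 0.833 and 0.829 with SC1, a change of -0.068 (SE 0.068; adjusted p over all probes 0.487). The signs of the probes differed, and neither passed. Mu class genes are close copies of each other, and how far a probe binds the transcripts of its neighbours was not tested.

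Of 22 other transferases tested, 8 were higher, 4 lower and 10 did not pass (54.5% called beside 38.3% of all genes). Mgst2, a transferase of the microsomal membrane, had signals of 0.320, 0.314 and 0.325 with DMSO and 0.808, 0.734 and 0.80 with SC1. It rose by 1.29 (SE 0.052; 2.44-fold; adjusted p 3.34e-05), a larger value than that of any of the 10 genes. Gstt1 rose by 0.36 (adjusted p 0.00483), while Gstt2 fell by 0.41 (adjusted p 0.00208), Gstp3 by 0.49 (adjusted p 0.00249) and Gstk1 by 0.34 (adjusted p 0.0123). For Gstk1 the call was kept in 14 of 17 alternatives. Gsta2, an alpha class gene, rose by 1.25 (SE 0.30; adjusted p 0.0215) on a dim probe that was above background on 2 of 3 DMSO arrays, and by 0.39 with normexp. That probe passed the filter only through the SC1 arrays, where it was higher, and had no test with the filter on all 6 arrays. Its call was lost without DMSO replicate 2 or 3 or SC1 replicate 3 (adjusted p 0.0575 to 0.0658). It was also lost with a replicate block (0.0572) and with the first position block, where the change was 0.76.

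Of the thioredoxin system, Txnrd1 fell. It encodes the cytosolic thioredoxin reductase, a selenoprotein that uses NADPH to keep thioredoxin reduced. Its signal was 56.7, 59.5 and 59.2 with DMSO and 43.4, 40.8 and 43.0 with SC1, so the groups were well apart. Txnrd1 fell by 0.46 (SE 0.046, 95% interval -0.57 to -0.35; 1.38-fold), with an adjusted p of 0.000751.

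Srxn1 encodes sulfiredoxin, which restores overoxidised peroxiredoxins. Its signal was 11.5, 11.4 and 11.7 with DMSO and 11.9, 12.6 and 11.5 with SC1. The groups overlapped, with a change of 0.054 (SE 0.049, 95% interval -0.065 to 0.17; adjusted p 0.432). The log2 ratio of Txnrd1 to Srxn1 within an array fell by 0.52, with an SD of 0.045 over the DMSO and 0.11 over the SC1 arrays, and its groups did not overlap (exact permutation p 0.1).

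Of 28 other genes of peroxide reduction, 8 were higher, 7 lower and 13 did not pass (53.6% called beside 38.3% of all genes). Txnip, which encodes an inhibitor of thioredoxin, had signals of 6.47, 6.47 and 6.20 with DMSO and 12.8, 12.3 and 12.4 with SC1. It rose by 0.97 (SE 0.042; adjusted p 4.35e-05), with 0.72 to 0.97 over its probes. Gpx2, a glutathione peroxidase and a known NRF2 target, rose by 0.92 (SE 0.053; 1.89-fold; adjusted p 0.000107), and its relative Gpx7 also rose (adjusted p 0.000344).

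Among the lower genes of this list, Txnrd3, the thioredoxin glutathione reductase, fell 1.52-fold (SE 0.059; adjusted p 0.000689) and Txn2, the mitochondrial thioredoxin, by 0.24 (adjusted p 0.00668). Prdx5 fell by 0.30 (adjusted p 0.0187) and Prdx1 by 0.21 (adjusted p 0.0258), the latter on 1 of its probes, the other giving -0.04, and with its call kept in 7 of 17 alternatives. The peroxiredoxins did not all fall. Prdx6 rose by 0.35 (adjusted p 0.00159), with every probe higher, Prdx4 fell by 0.16 (adjusted p 0.0277), and Prdx2 and Prdx3 did not pass. Txn1, the cytosolic thioredoxin that is the substrate of the reductase, had a change of -0.057 (adjusted p 0.539), which turned to 0.046 with quantile normalization. Prdx5 lost its call without DMSO replicate 1 or 3 (adjusted p 0.0551 and 0.0644), and Prdx1 without DMSO replicate 2 or 3 or SC1 replicate 1 or 2 (0.0648 to 0.0835). Over all 17 alternatives Prdx5 kept its call in 12 and Txn2 in 14.

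NADPH feeds both the thioredoxin and the glutathione reductases. Of 9 genes of its supply 1 was higher, 3 were lower and 5 did not pass (44.4% called beside 38.3% of all genes). Me1, malic enzyme, rose by 0.42 (adjusted p 0.000944). Tkt, transketolase, fell by 0.37 (adjusted p 0.0289), a call kept in 7 of 17 alternatives and lost with quantile normalization (0.0696), the deposited matrix (0.0703) and no filter (0.0625). G6pdx, which opens the pentose phosphate pathway, fell by 0.22 (adjusted p 0.014), and Nadk, which makes NADP from NAD, by 0.21 (adjusted p 0.0105). Tkt also lost its call without DMSO replicate 1 or 2 or SC1 replicate 1 or 3 (adjusted p 0.0678 to 0.0898), and G6pdx without DMSO replicate 3 (0.0516). Over all 17 alternatives G6pdx kept its call in 13 and Nadk in 14.

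**Figure D3:**
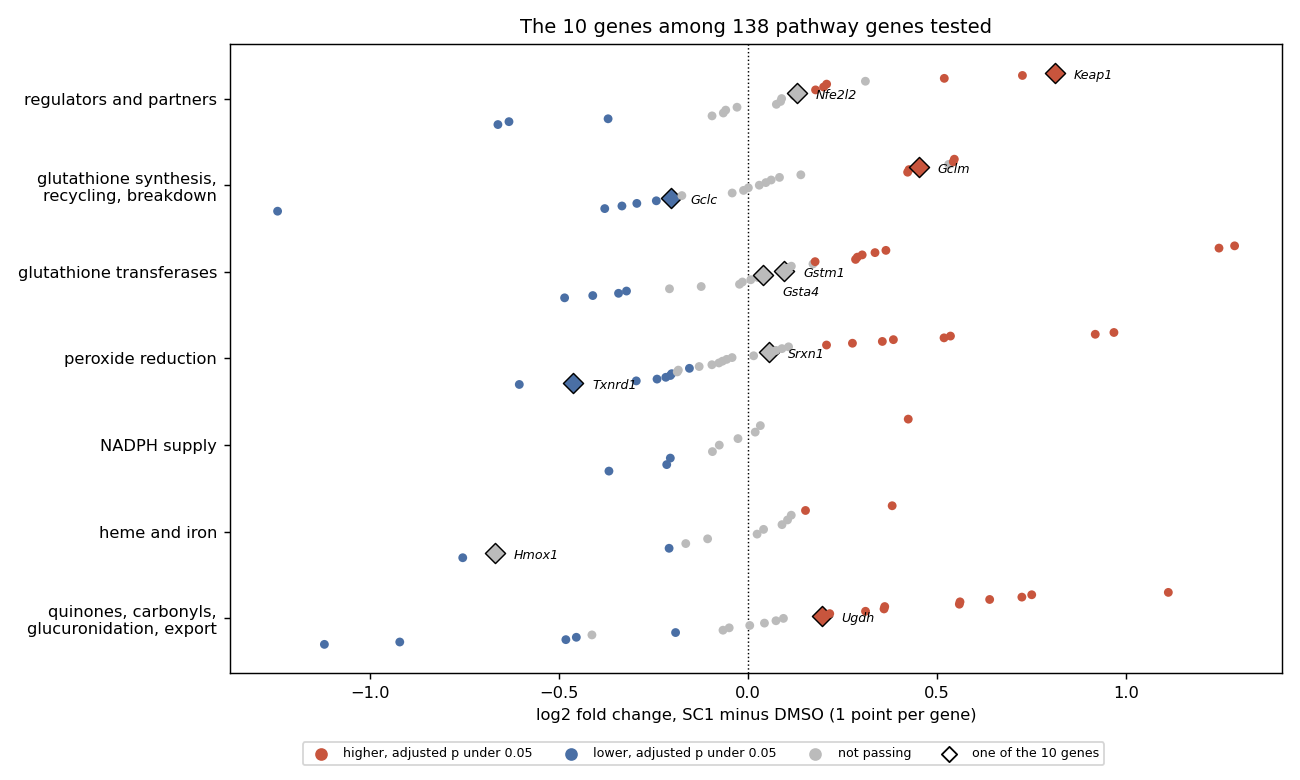
Log2 fold change, SC1 minus DMSO, of the 10 genes (diamonds, named) and the other tested genes of the 7 pathway lists (points), 138 genes in all; red is higher and blue lower at an adjusted p under 0.05, and grey did not pass. Each list holds genes on either side of 0, with Keap1 at 0.81 and Hmox1 at -0.67 the farthest of the 10 genes.

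Of the 10 genes, Hmox1 varied most between arrays of a group. It encodes heme oxygenase 1, which breaks heme down to biliverdin, iron and carbon monoxide, and is repressed by BACH1. The brighter of its 2 probes gave 11.1, 10.66 and 8.51 with DMSO and 4.41, 11.1 and 5.12 with SC1. SC1 arrays 1 and 3 lay below all DMSO arrays, and SC1 array 2 lay at the top of the DMSO range. The dimmer probe gave 0.833, 0.838 and 0.732 with DMSO and 0.549, 0.977 and 0.548 with SC1, so SC1 array 2 stood apart there too.

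With all arrays the change of Hmox1 was -0.67 (SE 0.35, 95% interval -1.53 to 0.19), with an adjusted p of 0.192, and on the dimmer probe -0.27 (SE 0.24; adjusted p over all probes 0.432). Without SC1 replicate 2 it was -1.08 with an adjusted p of 0.00612, and without SC1 replicate 1 it was -0.41 with an adjusted p of 0.419. It passed with spike-in scaling (-0.71, adjusted p 0.00265) and with normexp (-0.69, adjusted p 0.0433), and the alternatives ranged in p from 0.00265 to 0.419. With spike-in scaling Bach1, whose arrays lay close together, had an adjusted p of 0.000598 at 0.68, and Gclm 0.0549 at 0.41. Among these genes that p followed the size of the change, so it does not measure the spread of Hmox1 between SC1 arrays. SC1 array 2 minus DMSO array 1, which share the second array position number of the file headers, gave -0.0012, and SC1 array 3 minus DMSO array 2, which share another, gave -1.06.

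On SC1 array 2 Hmox1 was 1.11 on the log2 scale away from the nearer of the other SC1 arrays. Among 11521 genes with a mean signal above the 75th percentile, a limit set after the values were seen, Hmox1 was the only one with a gap this large on that array, and none had one on SC1 array 1 or 3. The next genes with a higher signal on SC1 array 2 were Tnpo2 at 0.79 and Trappc3 at 0.77. Like Hmox1, both lay below all DMSO arrays on SC1 arrays 1 and 3 and near them on SC1 array 2. Lamtor2 (gap 0.60) and Aldh2 (0.55) had this pattern too, so it was not confined to Hmox1, while Fam13c (0.46) did not. How far the pattern belongs to the array was not tested. Among all genes tested, dim ones included, 47 had such a gap on SC1 array 2, 49 on SC1 array 1 and 73 on SC1 array 3.

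**Figure D4:**
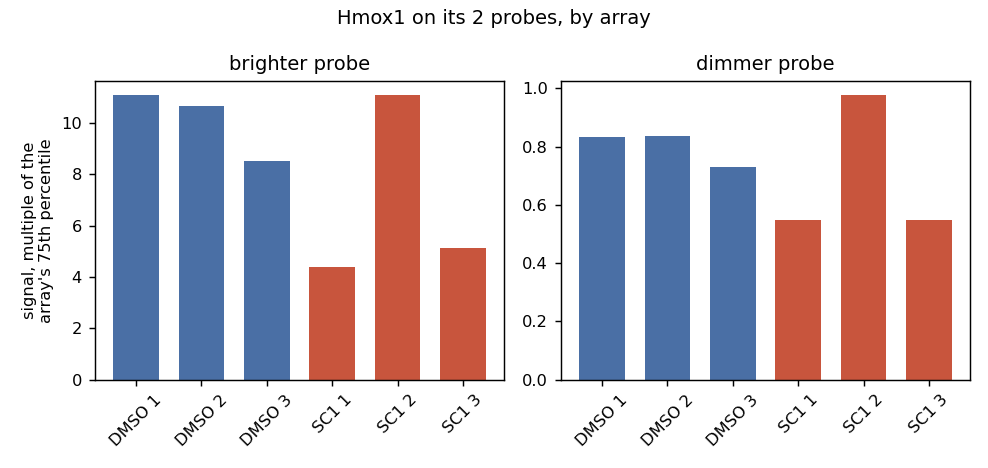
Signal of Hmox1 on the brighter (left) and the dimmer (right) of its 2 probes, on the DMSO arrays (blue) and the SC1 arrays (red), as a multiple of the array's 75th percentile; bars start at 0 and the panels have their own scales. On both probes SC1 array 2, at 11.1 and 0.977, is as high as the DMSO arrays or higher, while SC1 arrays 1 and 3 are lower than all of them.

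Of 11 other genes of heme and iron handling, 2 were higher, 2 lower and 7 did not pass. The share called was 36.4%, beside 38.3% of all genes. Abcb6, a porphyrin transporter, rose by 0.38 (adjusted p 0.00107) and Fech, which inserts iron into heme, by 0.15 (adjusted p 0.0315). The call of Fech was kept in 7 of 17 alternatives and lost with normexp (0.163), spike-in scaling (0.740), no filter (0.0652) and either position block (0.110 and 0.276). Tfrc, the transferrin receptor that imports iron, fell 1.69-fold (SE 0.084; adjusted p 0.00114), with every probe lower. Blvra, which reduces the biliverdin made by heme oxygenase, fell by 0.21 (adjusted p 0.0171). Fth1, the ferritin heavy chain, had a change of 0.10 (adjusted p 0.0874). Fech also lost its call without DMSO replicate 2 or 3 or SC1 replicate 1 or 3 (adjusted p 0.0865 to 0.0984), and Blvra without DMSO replicate 2 or 3 (0.0608 and 0.0598). Over all 17 alternatives Blvra kept its call in 11.

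Ugdh encodes UDP-glucose dehydrogenase, which makes the glucuronic acid donor for glucuronidation. Its signal was 8.07, 7.25 and 8.16 with DMSO and 9.09, 8.85 and 8.91 with SC1. The SC1 arrays lay above the DMSO arrays, and DMSO array 2 was the lowest. Ugdh rose by 0.20 (SE 0.058, 95% interval 0.054 to 0.34; 1.15-fold), with an adjusted p of 0.0412, close to the threshold. Leaving out any of the 6 arrays gave 0.14 to 0.23 and ended the call, with an adjusted p of 0.0544 to 0.111. It was also lost with spike-in scaling (adjusted p 0.599), without a filter (0.0789) and with the first (0.152) or second (0.166) array position number as a block, over a range that began at 0.00284.

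Of 22 other genes of quinone and carbonyl reduction, glucuronidation and export, 10 were higher, 5 lower and 7 did not pass (68.2% called beside 38.3% of all genes). Nqo1, the quinone reductase that is widely used as a readout of NRF2, had signals of 2.26, 2.30 and 2.20 with DMSO and 3.80, 3.55 and 3.83 with SC1. It rose by 0.72 (SE 0.048; 1.65-fold; adjusted p 0.000173), and its groups were well apart. Ugt1a6b, a glucuronosyltransferase that uses the product of Ugdh, rose by 1.11 (adjusted p 0.000157) on a dim probe, and its locus shares exons among several transcripts. Abcc2, which exports glutathione and glucuronide conjugates, rose by 0.75 (adjusted p 0.000889).

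Exporters and reductases went both ways. Abcc5 rose by 0.56 (adjusted p 0.000198), with 0.10 to 0.56 over its probes. Abcc3 rose by 0.36 (adjusted p 0.0092) on a dim probe, and Abcc1 did not pass. Of the reductases, Cbr3 rose by 0.56 and Ptgr1 by 0.64, while Akr1b3 fell by 0.45 and Nqo2 by 0.19. Abcg2 had signals of 9.19, 9.45 and 9.34 with DMSO and 4.29, 4.24 and 4.33 with SC1. It fell by 1.12 (SE 0.037; 2.17-fold; adjusted p 1.85e-05). Abcc4, which also carries conjugates, fell by 0.92 (adjusted p 7.58e-05), and Akr1b8, an aldo-keto reductase, by 0.48 (adjusted p 0.000278).

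Of the 136 other genes listed for the pathway 135 had a probe and 128 were tested; 38 were higher, 29 lower and 61 did not pass, so 52.3% were called beside 38.3% of all genes. Their median change was 0.031, and 85 of the 128 had groups that did not overlap, beside 52.1% of all genes. Because the lists were chosen with earlier results known, these shares are a description only. Of the 12 probes of the 10 genes 5 were called, beside 36.3% of all probes tested. Within the second array position number, SC1 array 2 minus DMSO array 1 and SC1 array 3 minus DMSO array 2 gave 0.82 and 0.83 for Keap1 and 0.42 and 0.44 for Gclm. They gave -0.47 and -0.47 for Txnrd1, -0.29 and -0.16 for Gclc and 0.13 and 0.30 for Ugdh. Within the first position number, SC1 array 1 minus the mean of the DMSO arrays gave 0.81 for Keap1 and 0.47 for Gclm. It gave -0.43 for Txnrd1, -0.15 for Gclc and 0.22 for Ugdh. The groups of these genes did not overlap, so the directions within a position number were fixed beforehand and are no separate check. SC1 arrays 2 and 3 had another first position number, shared with no DMSO array.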

How the data were processed

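Each RNA sample was hybridised to 1 single-colour Cy3 array. Signals were read with Agilent Feature Extraction 10.7, per the submitters' processing notes. Per the file headers, the deposited intensity of each spot is corrected for background and spatial trend, with the raw median intensity of spot and background beside it and other columns holding 0 or 1 flags. A second deposited table holds log2 intensities normalized by the authors, whose method is not given in the sources used here.

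Of 62976 spots, 137 to 201 per array flagged as outliers were left out and none was saturated. The log2 processed signal was averaged per probe (55681 probes) and the array's 75th percentile subtracted. A probe was kept (35332) if well above background on all 3 arrays of a group, and the brightest probe stood for its gene. RefSeq accessions named 27235 probes. SC1 was compared with DMSO by limma 3.58.1 in R 4.3.3 (lmFit, eBayes, two-sided, Benjamini-Hochberg over all genes, threshold 0.05). On simulated data of this comparison with 25448 genes it recovered 12 of 50 genes set to a 1.25-fold change, 36 of 50 at 1.5-fold, 39 of 50 at 2-fold and 48 of 50 at 4-fold, with 7 false calls. Only 50 genes were changed at each size, a far smaller share than the 38.3% called in the data. The Benjamini-Hochberg cutoff depends on that share, so these recoveries do not measure the sensitivity of the real comparison.

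The 10 genes and the 7 pathway lists were chosen with earlier results of these data known. The other genes named are, in each list, up to 3 higher and 3 lower with the largest change among those called, and 11 fixed by name. Alternatives were quantile normalization, scaling to 8 spike-in probes, normexp (offset 50), the deposited matrix, other filters, the mean of probes, a robust prior, the replicate number or an array position number as a block, and leaving out each array. The headers give each array a pair of position numbers, and the block of the second was chosen after the values were seen. With the first as a block, each change is that of SC1 array 1 alone against the DMSO arrays. Figures were drawn with matplotlib 3.10.9 in Python 3.11.15.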

Additional observations from a re-analysis of the deposited data

How the results depend on the processing

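Keap1 and Txnrd1 kept their direction and their call in all 17 alternatives, with 0.77 to 0.88 and -0.50 to -0.37 on the log2 scale. Over the 55 named genes, 799 of the values under alternatives kept direction and side of the threshold, 120 lost the call, 9 gained it and 6 changed sign. The sign changes were Gsta4 with spike-in scaling (-0.0012), Gsr with quantile normalization (0.0486) and the deposited matrix (0.0485), and Txn1 with these (0.0458 and 0.0458) and without SC1 replicate 2 (0.0034; -0.105 to 0.0034 over the arrays left out), none of them called in either direction.

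Of the 10 genes 3 were higher and 2 lower. Spike-in scaling left 1 higher, and quantile normalization, the deposited matrix and each position block left 1 lower. Nfe2l2 was called higher with quantile normalization, the deposited matrix and the robust prior. Leaving out 1 array gave 2 higher and 1 to 3 lower. Of the other pathway genes, 38 were higher and 29 lower; spike-in scaling gave 17 and 12, the first position block 26 and 16, and the second 15 and 7. Of all genes, 4612 were higher and 5139 lower; spike-in scaling gave 2290 and 2798, the first position block 2689 and 2854, and the second 1686 and 1636. The blocks leave fewer degrees of freedom, and the first position block compares SC1 array 1 alone with DMSO. The cause of the other losses was not tested. The share of higher genes among all called was 47.3%, and it was over 50% with normexp (57.8%; 6902 higher, 5049 lower), quantile normalization (52.1%; 5055 and 4654), the deposited matrix (51.9%; 5014 and 4639) and the second position block (50.8%).

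The labels give both groups replicate numbers, but the correlations of deviations between same-numbered arrays were -0.013, -0.037 and -0.016, and every array correlated best with one of another number. With a replicate block 2 of the 10 genes were higher and 2 lower, Ugdh being lost (adjusted p 0.0687); of the other pathway genes 31 were higher and 22 lower, and of all genes 3836 and 4075. Genes under the background limit, Slc7a11 among them, have no measured change.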
